A study of Mus musculus with 12 samples.

Results

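The proximal tubule takes filtered protein back from the urine and digests filtered peptides at its apical brush border, and 10 genes that carry out this work were followed through ischemia/reperfusion injury in mouse kidney. They are the receptor genes Lrp2 and Cubn, their partners Amn and Dab2, the meprin subunit genes Mep1a and Mep1b, and the protease genes Ggt1, Anpep, Dpp4 and Napsa. They were picked out by gene symbol and make up 10 of the 56748 genes of the deposited table. The kidneys came from male mice aged 8 to 12 weeks and were sequenced in 12 libraries, 3 in each of 4 groups. In the cKO mice Krt20, the gene of keratin 20, was deleted in renal proximal tubular cells. In the WT mice it was not. The cKO IR and WT IR groups had both renal pedicles clamped for 30 min under pentobarbital anesthesia, and the kidneys were taken 24 h after release (ischemia/reperfusion, IR). The cKO sham and WT sham groups had the same anesthesia and surgery without the clamp. The Cre line, the promoter that drives it, the strain and whether the WT mice were littermates are not stated in the labels. The labels also leave unsaid whether the libraries of a group are different animals, so a p-value here measures no more than the spread among the libraries.

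Megalin, the product of Lrp2, and cubilin, the product of Cubn, are large receptors at the base of the microvilli that bind albumin, vitamin carrier proteins and many other filtered proteins. Cubilin has no membrane-spanning segment and reaches the surface bound to amnionless, the product of Amn, while Dab2 is the adaptor that links the tail of megalin to clathrin. On the microvilli themselves, membrane-bound peptidases trim filtered peptides and glutathione so that amino acids can be taken up again.

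The libraries held 13187531 to 15962303 reads, recovered from the deposited FPKM (a read measure corrected for gene length and sequencing depth), and mitochondrial genes took 7.29% to 10.4% of them. Krt20 had 28.2, 35.6 and 47.0 FPKM in cKO IR, against 0.0343, 0 and 0 FPKM in cKO sham. Its WT IR libraries had 84.0, 64.9 and 59.9 FPKM, against 0.0384, 0 and 0.157 FPKM in WT sham. Krt20 was thus near 0 in both sham groups, so it cannot check the genotype there. Every cKO IR library lay below every WT IR library, as for 5.84% of all tested genes, while still holding Krt20 RNA. The Krt20 difference between these 2 groups was not called by the limma test described below (log2 difference −0.91, adjusted p = 0.132). The extraction text of the labels names retinas and the tissue field names kidney. The summed FPKM of 10 proximal tubule markers lay at 9341 to 12116 in cKO IR against 19064 to 26390 in cKO sham. In WT IR the sum lay at 7026 to 16770, against 24804 to 26995 in WT sham. By contrast, 9 retina markers summed to at most 0.596 FPKM in any library. Most of the proximal tubule sum was Kap, which averaged 9374 FPKM in cKO IR and 17914 FPKM in cKO sham. Means of Kap were 8822 FPKM in WT IR and 20890 FPKM in WT sham. The library WT IR 2 stood apart within its group, with 16770 FPKM of proximal tubule markers where WT IR 1 had 8251 and WT IR 3 had 7026, and with 485 FPKM of the injury marker Havcr1 where they had 782 and 797.

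The stretches of 250 bases just before the annotated start sites are shown for the receptor system and for Mep1a, because their RNA levels differed widely in how far they changed after injury. They are the RefSeq sequences of build GRCm38.p6, read 5′ to 3′ on the strand of the gene. The set used here held 12 such windows for 8 of the 10 genes, and no window of Mep1b or Napsa was included. Capitals mark CAAAGT, the core of an HNF4 site, which was searched on both strands, since HNF4A is a transcription factor of the proximal tubule. Of the Dab2 windows, start 1 is the upstream one.
Lrp2 (chr2:69586030-69586279, minus strand): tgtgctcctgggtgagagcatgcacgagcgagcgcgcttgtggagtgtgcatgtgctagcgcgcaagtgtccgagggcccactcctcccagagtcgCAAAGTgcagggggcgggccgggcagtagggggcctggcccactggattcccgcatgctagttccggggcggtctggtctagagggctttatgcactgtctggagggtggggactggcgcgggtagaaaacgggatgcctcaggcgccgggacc
Cubn (chr2:13491877-13492126, minus strand): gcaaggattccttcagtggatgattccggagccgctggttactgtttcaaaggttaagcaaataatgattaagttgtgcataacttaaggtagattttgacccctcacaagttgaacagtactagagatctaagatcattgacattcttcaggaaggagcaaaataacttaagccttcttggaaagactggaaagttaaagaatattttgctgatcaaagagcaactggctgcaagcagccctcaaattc
Amn (chr12:111270846-111271095, plus strand): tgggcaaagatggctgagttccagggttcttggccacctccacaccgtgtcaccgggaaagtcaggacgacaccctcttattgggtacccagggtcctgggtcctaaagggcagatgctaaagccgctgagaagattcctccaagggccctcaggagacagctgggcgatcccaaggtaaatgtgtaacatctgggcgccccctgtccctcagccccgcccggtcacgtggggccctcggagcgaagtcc
Dab2, start 1 (chr15:6299539-6299788, plus strand): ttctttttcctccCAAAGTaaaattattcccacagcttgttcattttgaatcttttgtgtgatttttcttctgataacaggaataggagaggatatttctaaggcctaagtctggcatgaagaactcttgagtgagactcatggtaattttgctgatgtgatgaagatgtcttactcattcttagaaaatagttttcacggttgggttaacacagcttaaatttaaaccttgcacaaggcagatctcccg
Dab2, start 2 (chr15:6386498-6386747, plus strand): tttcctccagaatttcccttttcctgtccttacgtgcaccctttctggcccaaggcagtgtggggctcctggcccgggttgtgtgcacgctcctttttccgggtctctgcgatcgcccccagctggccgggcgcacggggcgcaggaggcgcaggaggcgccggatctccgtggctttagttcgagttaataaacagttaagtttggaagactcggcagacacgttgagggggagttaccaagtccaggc
Mep1a (chr17:43502774-43503023, minus strand): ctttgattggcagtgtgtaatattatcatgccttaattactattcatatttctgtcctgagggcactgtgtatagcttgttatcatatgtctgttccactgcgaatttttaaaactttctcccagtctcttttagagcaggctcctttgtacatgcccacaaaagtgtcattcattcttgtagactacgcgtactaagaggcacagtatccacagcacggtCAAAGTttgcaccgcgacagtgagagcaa
CAAAGT stood 154 to 149 bases before the start of Lrp2, 29 to 24 bases before that of Mep1a and 237 to 232 bases before start 1 of Dab2. It occurs in 12.6% of all 32851 windows. The longer form CAAAGTNCA, which contains that core, was found in the Lrp2 window and in 1.19% of all windows. Neither form was found in the windows of Cubn, Amn, Anpep, Dpp4 and start 2 of Dab2, and 1 of the 4 windows of Ggt1 held CAAAGT. The windows also differed in base composition. Their G and C content was 72.8% for Anpep, 66.4% for Lrp2, 61.2% for Amn, 43.6% for Dpp4, 41.6% for Mep1a and 39.6% for Cubn, against a median of 52.4% over all windows. These matches describe letters only.

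In uninjured kidneys the order of the mean levels was the same in both genotypes. Mep1a was the most abundant, with means of 557 FPKM in cKO sham and 571 FPKM in WT sham, followed by Napsa with 472 and 466 FPKM and Ggt1 with 330 and 382 FPKM in the same groups. Lrp2 came next, with 236 FPKM in cKO sham and 217 FPKM in WT sham. Amn, Mep1b and Dab2 formed a middle group, at means of 102, 96.3 and 83.4 FPKM in cKO sham and 89.4, 86.7 and 76.6 FPKM in WT sham. In both sham groups the libraries of Mep1b overlapped those of Amn and those of Dab2, while all Amn values lay above all Dab2 values. Anpep and Cubn also overlapped with each other, at 55.7 and 54.1 FPKM in cKO sham and 47.6 and 45.8 FPKM in WT sham. Dpp4 was the lowest, with 19.7 FPKM in cKO sham and 16.9 FPKM in WT sham. FPKM are scaled to gene length, so these levels can be set side by side.

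**Figure D1:**
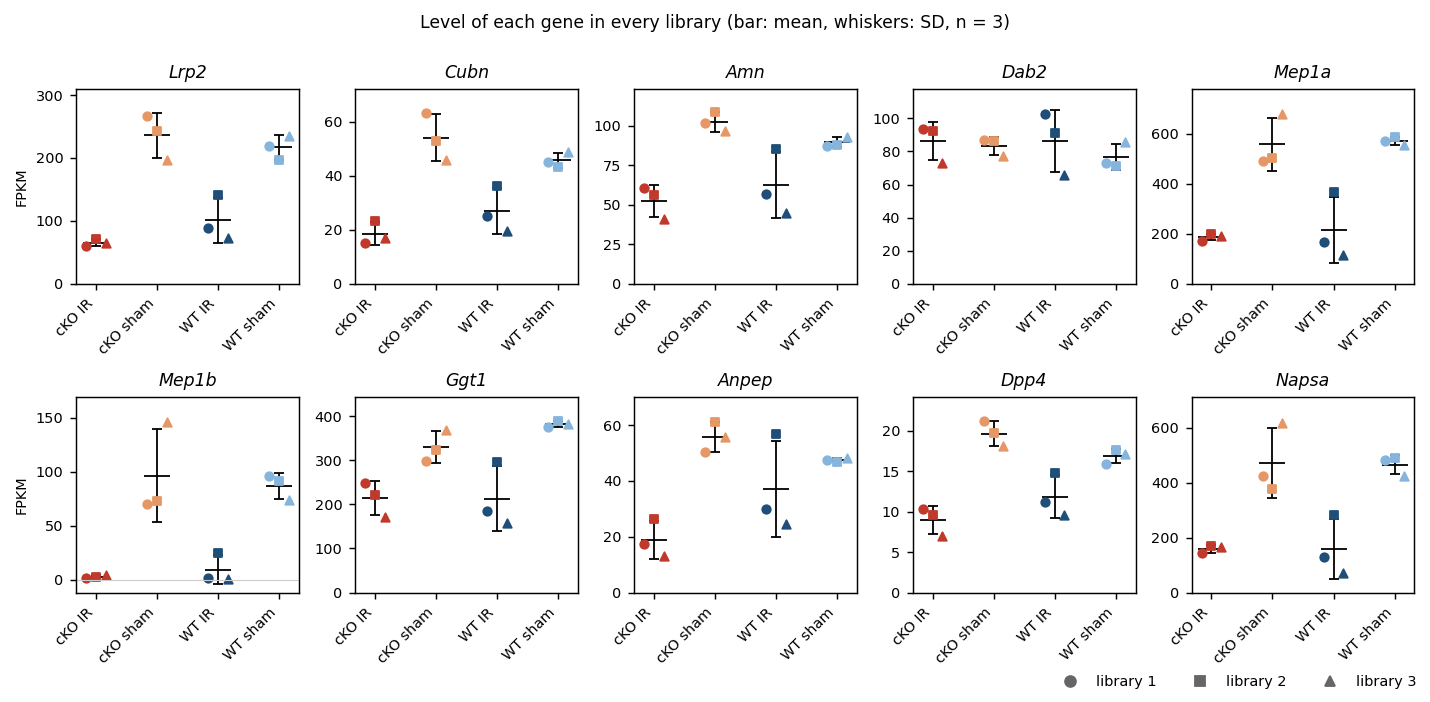
FPKM of each of the 10 genes in every library, by group from cKO IR to WT sham; points are libraries, bars are means and whiskers are SD (n = 3). All 3 cKO IR libraries lie below all 3 cKO sham libraries for every gene but Dab2, and in WT IR library 2 is the highest for every gene but Dab2.

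After injury the receptor genes fell in both genotypes and the adaptor gene did not pass the test in either. Lrp2 had 60.5, 72.0 and 64.6 FPKM in cKO IR, against 267, 243 and 197 FPKM in cKO sham. The WT IR libraries had 88.1, 142 and 73.4 FPKM, against 219, 196 and 235 FPKM in WT sham. Every IR library was below every sham library of its genotype, and WT IR 2 was the least reduced. The log2 difference, computed by limma on log2(FPKM + 1), was −1.82 in cKO (SE 0.21, adjusted p = 6.44e-05) and −1.15 in WT (SE 0.21, adjusted p = 0.00164), with p-values adjusted over all 12868 tested genes by the Benjamini-Hochberg method and called under 0.05. A log2 difference of −1 is a halving on this scale. In whole kidney, fewer tubule cells and less RNA per cell cannot be told apart. Proximal tubule markers moved with this result. Of 10 markers, 9 were called lower in cKO IR than in cKO sham, as were 23.1% of all tested genes. In WT IR against WT sham 8 of 10 were called lower, as were 19.5% of all tested genes. The median log2 difference of the 10 markers was −1.95 in cKO and −1.27 in WT. Markers of the thick ascending limb and distal tubule were lower too. Their summed medians were 661 FPKM in cKO IR against 1284 FPKM in cKO sham, and 664 FPKM in WT IR against 1430 FPKM in WT sham. Most of these sums was Umod, which averaged 496 FPKM in cKO IR and 956 FPKM in cKO sham. Its means were 609 FPKM in WT IR and 954 FPKM in WT sham. Of these 6 markers, 6 were called lower in cKO and 5 in WT. Tubular injury markers were higher, with summed medians of 13738 FPKM in cKO IR against 771 FPKM in cKO sham. In WT the summed medians were 10253 FPKM in WT IR and 400 FPKM in WT sham. Most of these sums was Spp1, which averaged 11886 FPKM in cKO IR and 706 FPKM in cKO sham. Its means were 8002 FPKM in WT IR and 335 FPKM in WT sham. Of the 8 injury markers, 7 were called higher in cKO, as were 27.8% of all tested genes. In WT 8 were called higher, as were 22.6% of all tested genes. The part of these shifts in the results for the 10 genes was not tested.

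Cubn, the partner receptor, had 15.2, 23.3 and 16.9 FPKM in cKO IR, against 63.3, 52.9 and 46.0 FPKM in cKO sham. Its WT IR values were 25.1, 36.3 and 19.5 FPKM, against 45.3, 43.3 and 48.9 FPKM in WT sham. IR and sham libraries were again fully apart within each genotype. Its log2 difference was −1.51 in cKO (SE 0.21, adjusted p = 0.000224) and −0.79 in WT (SE 0.21, adjusted p = 0.0131). Amn, which carries cubilin to the surface, had 60.5, 56.2 and 41.1 FPKM in cKO IR, against 102, 109 and 96.4 FPKM in cKO sham. In WT IR it had 57.1, 85.3 and 44.7 FPKM, against 87.2, 88.0 and 93.1 FPKM in WT sham. The groups did not overlap, but WT IR 2, at 85.3 FPKM, came close to the lowest WT sham library, at 87.2 FPKM. The log2 difference of Amn was −0.96 in cKO (SE 0.20, adjusted p = 0.0027) and −0.56 in WT (SE 0.20, adjusted p = 0.0471). The WT call was narrow, since the adjusted p was 0.0590 to 0.168 when any of 9 of the 12 libraries was left out, and it was also lost under 5 other settings.

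Dab2, the adaptor, had 93.5, 92.3 and 73.0 FPKM in cKO IR, against 87.0, 86.1 and 77.0 FPKM in cKO sham. The WT IR libraries had 103, 90.9 and 65.8 FPKM, against 73.1, 71.1 and 85.6 FPKM in WT sham. IR and sham libraries overlapped in both genotypes. On the log2 scale the difference was 0.04 in cKO (95% interval −0.31 to 0.40, adjusted p = 0.841) and 0.15 in WT (95% interval −0.20 to 0.51, adjusted p = 0.468). These intervals exclude the difference seen for Lrp2 in the same genotype. Dab2 is also made by macrophages and other cells, and 7 macrophage markers summed to 50.6 to 85.1 FPKM in cKO IR against 43.5 to 67.2 FPKM in cKO sham. Their sum was 34.0 to 94.2 FPKM in WT IR against 45.5 to 62.0 FPKM in WT sham. These sums join markers that moved in opposite directions. Csf1r averaged 4.47 FPKM in cKO IR and 11.5 FPKM in cKO sham, and 4.22 FPKM in WT IR and 11.9 FPKM in WT sham. Means of Cd68 were 11.4 FPKM in cKO IR and 2.72 FPKM in cKO sham, and 11.3 FPKM in WT IR and 2.48 FPKM in WT sham. The part of such cells in the level of Dab2 was not tested.

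The meprins are metalloproteases built from alpha and beta subunits, and the gene of the beta subunit, which anchors the enzyme in the membrane, showed the largest change of the 10 genes. Mep1b had 1.74, 2.17 and 4.44 FPKM in cKO IR, against 69.7, 73.3 and 146 FPKM in cKO sham. Its WT IR values were 1.72, 24.9 and 0.923 FPKM, against 95.6, 91.0 and 73.4 FPKM in WT sham. No IR library reached a sham library, and WT IR 2 stood far above WT IR 1 and WT IR 3. The low values rest on 73, 88 and 180 recovered reads in cKO IR and on 77, 963 and 36 recovered reads in WT IR. The log2 difference was −4.67 in cKO (SE 0.78, adjusted p = 0.000628), or 25.4-fold lower on the scale of FPKM + 1. In WT it was −4.08 (SE 0.78, adjusted p = 0.00211), or 17.0-fold lower on that scale. Without WT IR 2 it was −5.25, or 38.1-fold lower. The added 1 FPKM weighs on these folds, since most IR values were a few FPKM or less. Mean FPKM were 2.78 in cKO IR and 96.3 in cKO sham, and 9.17 in WT IR and 86.7 in WT sham.

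Mep1a, the gene of the alpha subunit, fell less and was still abundant in IR. It had 172, 199 and 189 FPKM in cKO IR, against 492, 501 and 679 FPKM in cKO sham. In WT IR it had 166, 365 and 115 FPKM, against 571, 585 and 555 FPKM in WT sham. All IR libraries lay below all sham libraries, with WT IR 2 again the nearest to sham. The log2 difference was −1.56 in cKO (SE 0.32, adjusted p = 0.00235) and −1.57 in WT (SE 0.32, adjusted p = 0.00318).

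Among the other proteases, Ggt1 encodes the enzyme that starts the breakdown of extracellular glutathione. It had 248, 221 and 172 FPKM in cKO IR, against 297, 322 and 369 FPKM in cKO sham. The WT IR libraries had 185, 296 and 158 FPKM, against 375, 390 and 381 FPKM in WT sham. The groups did not overlap within either genotype, and in cKO IR Ggt1 had the highest mean of the 10 genes, though its libraries overlapped those of Mep1a. Its log2 difference was −0.63 in cKO (SE 0.21, adjusted p = 0.0274) and −0.89 in WT (SE 0.21, adjusted p = 0.00652). The cKO call was lost when any of 4 libraries was left out (adjusted p = 0.0513 to 0.0978). Napsa encodes napsin A, an aspartic protease found in lysosomes of the proximal tubule. It had 143, 169 and 165 FPKM in cKO IR, against 423, 376 and 618 FPKM in cKO sham. Its WT IR values were 128, 281 and 69.8 FPKM, against 484, 489 and 426 FPKM in WT sham. IR and sham libraries were apart in both genotypes. On the log2 scale the difference was −1.54 in cKO (SE 0.39, adjusted p = 0.00722) and −1.77 in WT (SE 0.39, adjusted p = 0.00457).

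Anpep encodes aminopeptidase N, which removes single amino acids from the front end of peptides. It had 17.6, 26.3 and 13.0 FPKM in cKO IR, against 50.3, 61.0 and 55.9 FPKM in cKO sham. In WT IR it had 30.0, 56.9 and 24.6 FPKM, against 47.6, 46.9 and 48.1 FPKM in WT sham. The cKO groups did not overlap, whereas WT IR 2 was above all WT sham libraries, with WT IR 1 and WT IR 3 below them. The log2 difference was −1.56 in cKO (SE 0.29, adjusted p = 0.00116). In WT it was −0.44 (SE 0.29, adjusted p = 0.243), and −0.79 without WT IR 2 (adjusted p = 0.0157), which passed. Dpp4 encodes a peptidase that removes pairs of amino acids ending in proline or alanine. It had 10.3, 9.56 and 6.97 FPKM in cKO IR, against 21.2, 19.7 and 18.1 FPKM in cKO sham. The WT IR libraries had 11.2, 14.8 and 9.62 FPKM, against 15.9, 17.6 and 17.1 FPKM in WT sham. The groups were apart in both genotypes. Its log2 difference was −1.07 in cKO (SE 0.16, adjusted p = 0.000263) and −0.49 in WT (SE 0.16, adjusted p = 0.0261), and the WT call was lost when any of 4 libraries was left out (adjusted p = 0.0681 to 0.0983).

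**Figure D2:**
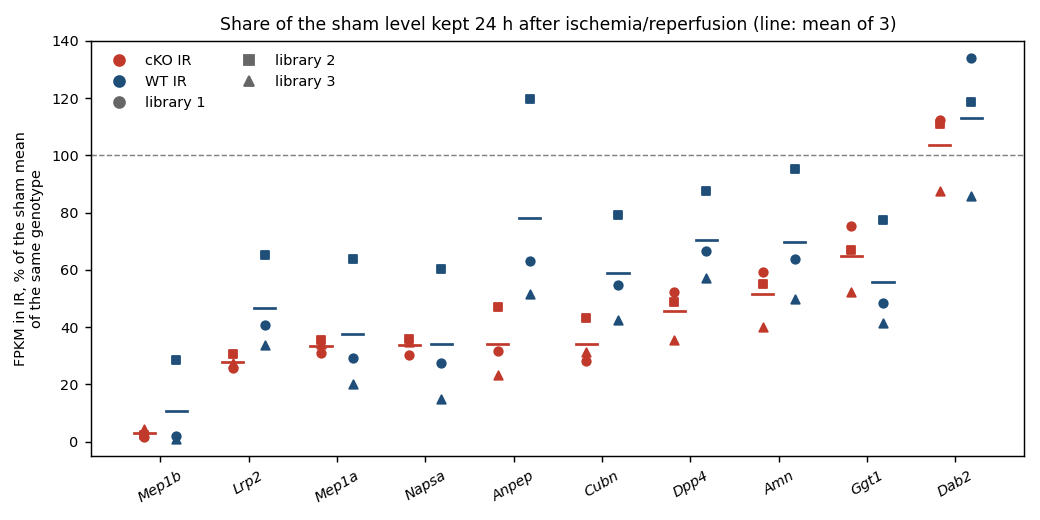
FPKM of each gene in each IR library as a percentage of the mean sham FPKM of the same genotype, with genes ordered by the cKO mean; points are libraries and short lines are means of 3. Mep1b kept 1.81% to 4.61% in cKO IR, and Dab2 lies around 100% in both genotypes.

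Counted over the 10 genes, 9 were called lower and 0 higher in cKO IR against cKO sham, where 23.1% of all tested genes were called lower and 27.8% higher. In WT IR against WT sham, 8 were called lower and 0 higher, where 19.5% of all tested genes were called lower and 22.6% higher. The IR libraries lay wholly below the sham libraries for 9 genes in cKO, as for 27.8% of all tested genes, and for 8 genes in WT, as for 24.9%. The median log2 difference of the 10 genes was −1.52 in cKO and −0.84 in WT, against 0.02 and 0.01 over all tested genes. The share of the sham mean that remained ordered the genes more finely than the calls. In cKO IR it averaged 2.89% for Mep1b, 27.9% for Lrp2, 33.5% for Mep1a, 33.6% for Napsa, 34.0% for Anpep, 34.2% for Cubn, 45.5% for Dpp4, 51.4% for Amn, 64.8% for Ggt1 and 104% for Dab2. In WT IR the libraries spread more widely, as with Lrp2 at 40.6%, 65.2% and 33.8% and Mep1b at 1.99%, 28.7% and 1.07%.

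**Figure D3:**
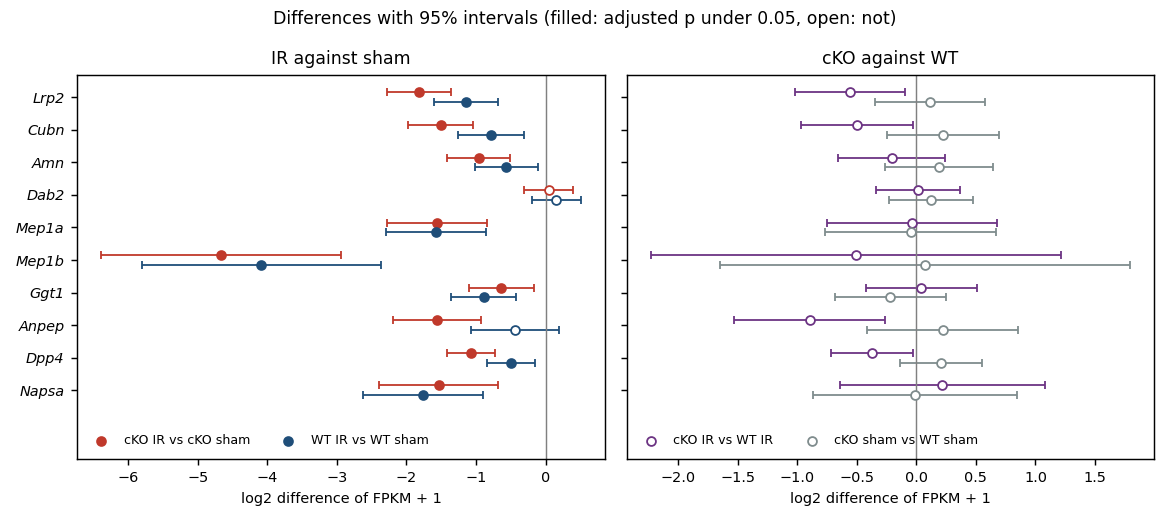
Log2 differences of FPKM + 1 with 95% intervals for IR against sham (left) and cKO against WT (right); filled points passed an adjusted p of 0.05 and open points did not. Every gene but Dab2 passed in cKO IR against cKO sham, and none passed between the genotypes.

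Genes whose products work together did not all keep their proportions. The ratio of Mep1b to Mep1a was 0.0101, 0.0109 and 0.0234 in cKO IR, against 0.142, 0.146 and 0.215 in cKO sham. In WT IR the ratio was 0.0104, 0.0682 and 0.00801, against 0.167, 0.155 and 0.132 in WT sham. The beta subunit RNA was thus lower against the alpha subunit RNA in every IR library than in any sham library. The log2 ratio, with 1 FPKM added to each gene, differed by −3.11 in cKO and by −2.51 in WT. The exact permutation test gave p = 0.1 in both, the smallest it can give with 3 libraries against 3. The ratio of Amn to Cubn was 3.97, 2.41 and 2.43 in cKO IR, against 1.61, 2.06 and 2.09 in cKO sham. In WT IR it was 2.27, 2.35 and 2.30, against 1.92, 2.03 and 1.90 in WT sham. All IR ratios were above all sham ratios. The cKO IR ratios were above the WT IR ratios, but only by 2.41 against 2.35 at the nearest. The library cKO IR 1, at 3.97, stood far above the rest of its group. The SD of the log2 ratio was 0.40 in cKO IR and 0.03 in WT IR. How often the ratios of other gene pairs separate in this way was not tested. The log2 ratio differed by 0.55 in cKO, by 0.22 in WT and by 0.29 between cKO IR and WT IR, each with p = 0.1 in the exact permutation test. The ratio of Cubn to Lrp2 was 0.252, 0.324 and 0.262 in cKO IR, against 0.237, 0.217 and 0.234 in cKO sham, and 0.285, 0.256 and 0.265 in WT IR, against 0.207, 0.220 and 0.208 in WT sham. IR ratios were above sham ratios here too, with log2 differences of 0.31 in cKO and 0.36 in WT (exact permutation p = 0.1 in both). In all, 12 such ratio comparisons were made, and none can reach 0.05.

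**Figure D4:**
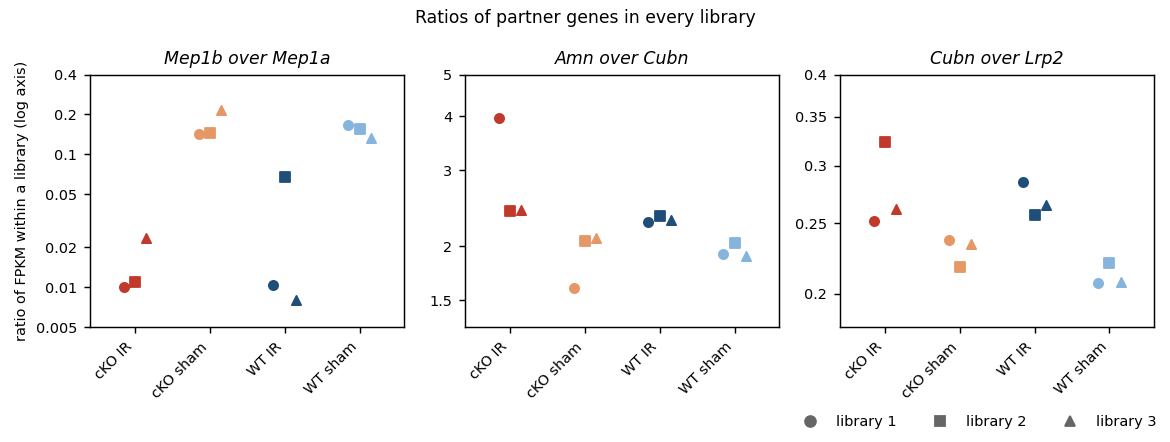
Ratio of FPKM within each library for Mep1b over Mep1a, Amn over Cubn and Cubn over Lrp2, on log axes, by group from cKO IR to WT sham; each point is a library. The Mep1b to Mep1a ratio is below every sham library in all 6 IR libraries.

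In uninjured kidney no difference between the genotypes passed the test for these genes. Of the 10 genes 0 were called in cKO sham against WT sham by limma, where 1.1% of all tested genes were called, and 0 had an unadjusted p under 0.05. The fit on recovered reads with limma-voom also called 0 of them. Log2 differences ran between −0.22 for Ggt1 (95% interval −0.68 to 0.25) and 0.22 for Cubn (95% interval −0.25 to 0.70). The cKO sham libraries lay below all WT sham libraries for Ggt1, as for 12.0% of all tested genes, and above them for Amn, Anpep and Dpp4, as for 13.0%. The library cKO sham 3 was the highest of its group for Mep1a, Mep1b, Napsa and Ggt1 and the lowest for Lrp2, Cubn, Amn, Dab2 and Dpp4. The interval of Mep1b was wide (−1.65 to 1.80), with a spread estimated over all 4 groups.

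In injured kidney no difference between the genotypes passed the test, and the values of the receptors and of Anpep were lower in cKO IR. The 10 proximal tubule markers had a median log2 difference of −0.69 between cKO IR and WT IR, and 0 were called. For the 10 described genes that median was −0.29. Kap, which made up most of the marker sum, averaged 9374 FPKM in cKO IR and 8822 FPKM in WT IR. The part of the marker shift in the values below was not tested. The comparison of cKO IR with WT IR called 0 of the 10 genes by limma, where 0.0% of all tested genes were called, and 4 of the 10 had an unadjusted p under 0.05, as did 1926 of the 12868. The limma-voom fit called 0 of the 10 and 1 of all genes. The 4 were Anpep (log2 difference −0.90, 95% interval −1.53 to −0.26, adjusted p = 0.212), Lrp2 (−0.56, −1.02 to −0.10, adjusted p = 0.254), Cubn (−0.50, −0.97 to −0.03, adjusted p = 0.309) and Dpp4 (−0.37, −0.71 to −0.03, adjusted p = 0.299). Lrp2 alone had every cKO IR library below every WT IR library, by 72.0 against 73.4 FPKM at the nearest, as did 5.84% of all tested genes. These values leaned on WT IR 2. Without it the log2 differences were −0.55 for Anpep, −0.29 for Lrp2, −0.27 for Cubn and −0.21 for Dpp4, and those of Mep1b (−0.51) and Mep1a (−0.04) became 0.66 and 0.43.

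An interaction term (the effect of IR in cKO minus that in WT) was also called for 0 of the 10 genes by limma and by limma-voom, where limma called 0.878% of all tested genes. An unadjusted p under 0.05 was found for 4 of the 10 and for 1878 of the 12868. The median interaction was −0.49 for the 10 genes and −0.64 for the 10 proximal tubule markers, of which 0 were called. The interaction was −1.12 for Anpep (SE 0.41, adjusted p = 0.234), −0.72 for Cubn (SE 0.30, adjusted p = 0.305), −0.67 for Lrp2 (SE 0.30, adjusted p = 0.327) and −0.58 for Dpp4 (SE 0.22, adjusted p = 0.257). Without WT IR 2 that of Anpep was −0.77 and that of Lrp2 −0.40. For Mep1a the interaction was 0.01, with a 95% interval of −0.999 to 1.03. The comparisons share libraries, since each group enters more than one of them, so they are not independent of each other.

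Other genes of the apical membrane and of uptake were read from lists of known members. Among 12 tested genes of other brush border peptidases and hydrolases, 8 fell and 0 rose in cKO IR against cKO sham. In WT IR against WT sham 7 fell and 0 rose. Median log2 differences were −0.86 in cKO and −0.82 in WT. The shares of all tested genes were 23.1% lower and 27.8% higher in cKO, and 19.5% lower and 22.6% higher in WT. Dpep1, the gene of a dipeptidase that acts on the glutathione products of Ggt1, averaged 9.45 ± 3.63 FPKM in cKO IR and 86.5 ± 16.5 FPKM in cKO sham (SD, n = 3 each; log2 difference −3.10, adjusted p = 4.40e-06). In WT kidneys it averaged 15.6 ± 2.30 FPKM in WT IR and 55.2 ± 3.30 FPKM in WT sham (SD, n = 3 each; log2 difference −1.76, adjusted p = 0.000189). Its interaction was −1.34 (adjusted p = 0.0737), which did not pass. Mme, the gene of neprilysin, fell in both, with log2 differences of −1.67 in cKO and −1.37 in WT. Xpnpep2, an aminopeptidase gene, fell likewise (−1.94 in cKO and −1.40 in WT). It was low, with means of 0.284 FPKM in cKO IR and 4.04 FPKM in cKO sham. In WT the means were 0.870 FPKM in WT IR and 3.81 FPKM in WT sham, so the added 1 FPKM shrinks its differences. Cltrn, the gene of collectrin, which helps amino acid transporters reach the membrane, also fell (−1.13 in cKO and −1.19 in WT).

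Genes of the shared machinery of endocytosis moved in both directions. Of 30 tested genes, 5 fell and 14 rose in cKO IR, and 5 fell and 11 rose in WT IR. Median log2 differences were 0.19 in cKO and 0.15 in WT. Among all tested genes 23.1% fell and 27.8% rose in cKO, and 19.5% fell and 22.6% rose in WT. Genes that fell were thus no more frequent in this list than among all tested genes. The adaptor subunit genes Ap2m1 and Ap2b1 rose by 0.76 and 0.61 in cKO and by 0.71 and 0.64 in WT on the log2 scale. Gipc1, which encodes an adaptor that also binds megalin, rose by 0.74 in cKO and by 0.64 in WT. Folr1, the gene of a folate receptor of the same membrane, fell, with log2 differences of −1.09 in cKO and −1.06 in WT. Lrpap1, the gene of the chaperone that megalin needs to fold, was picked after its values were seen and fell as well (−1.40 in cKO and −1.03 in WT). The cytoplasmic genes Myo6, a motor protein gene, and Appl2, also picked after their values were seen, fell too, with log2 differences of −0.63 and −0.48 in cKO and −0.41 and −0.52 in WT. More genes of this list rose than fell. Ehd1 and Rab11a, picked in the same way, rose by 0.60 and 0.49 in cKO and by 0.44 and 0.32 in WT.

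In the microvillus scaffold and lysosome lists genes moved in both directions, to be read against 23.1% lower and 27.8% higher among all tested genes in cKO and 19.5% lower and 22.6% higher in WT. Of 15 tested scaffold genes, 5 fell and 3 rose in cKO IR, and 3 fell and 2 rose in WT IR. Pdzk1, a scaffold for apical transporters, fell, with log2 differences of −1.34 in cKO and −0.79 in WT, as did Eps8, which caps actin filaments (−0.31 in cKO and −0.26 in WT). Ezr, the gene of ezrin, which ties the membrane to actin, rose by 0.75 in cKO and by 0.62 in WT. Anks4b, part of the complex at microvillus tips, rose by 0.23 in cKO and by 0.66 in WT, and was the only gene of the 5 lists called between the sham groups, at 17.3 ± 0.219 FPKM in cKO sham and 12.6 ± 0.490 FPKM in WT sham (SD, n = 3 each; log2 difference 0.43, adjusted p = 0.00995). Of 20 lysosome genes, 8 fell and 5 rose in cKO IR, and 5 fell and 5 rose in WT IR. The cathepsin genes Ctsb and Ctsz rose by 0.98 and 0.49 in cKO and by 0.95 and 0.55 in WT. Lgmn, the gene of the protease legumain, rose by 1.07 in WT, and its log2 difference in cKO was 0.49 (adjusted p = 0.0551).

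Of 8 tested transcription factor genes of the proximal tubule, 7 fell in cKO IR and 6 in WT IR, and 0 rose. Median log2 differences were −0.62 in cKO and −0.50 in WT. For comparison, 23.1% of all tested genes fell and 27.8% rose in cKO, and 19.5% fell and 22.6% rose in WT. The log2 difference of Maf was −1.13 in cKO and −0.77 in WT. For Ppara, a regulator of fatty acid oxidation, the values were −0.53 in cKO and −0.66 in WT. Nr1h4, the gene of the bile acid receptor FXR, fell in WT (−0.78), and its log2 difference in cKO was −0.47 (adjusted p = 0.0712). Hnf4a, named because its motif was searched, fell in cKO (log2 difference −0.67, adjusted p = 0.00182), and its log2 difference in WT was −0.29 (adjusted p = 0.104).

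**Figure D5:**
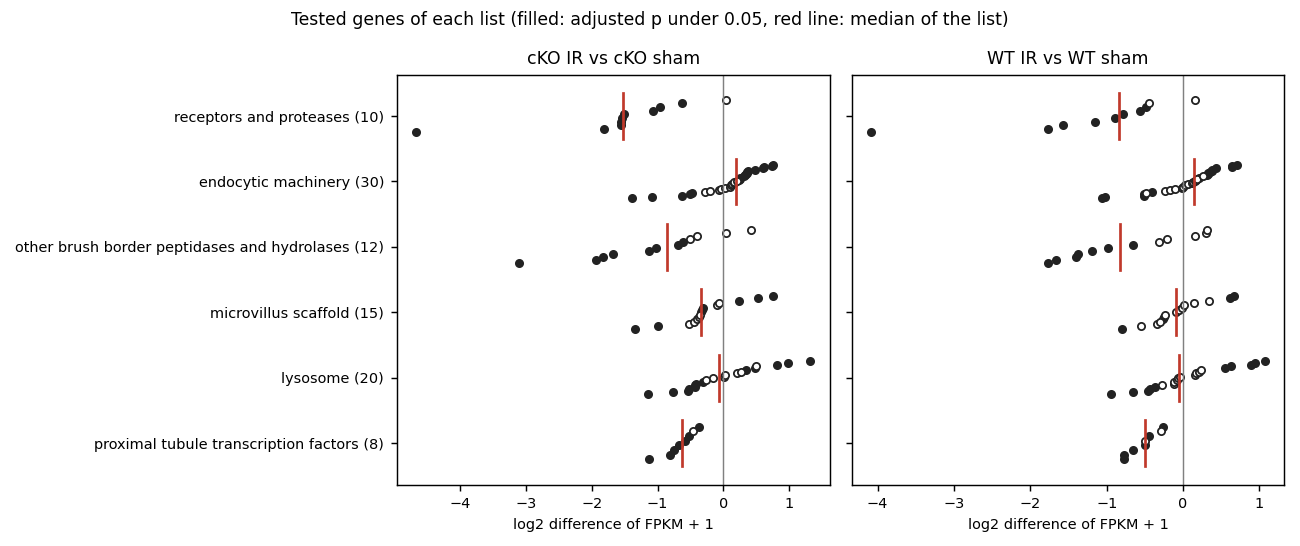
Log2 difference of FPKM + 1 for every tested gene of each list, cKO IR against cKO sham (left) and WT IR against WT sham (right); filled points passed an adjusted p of 0.05 and red lines are list medians, with the number of tested genes in brackets. The 10 receptor and protease genes have medians of −1.52 and −0.84, and the endocytic machinery has medians of 0.19 and 0.15.

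Within the 10 genes, some profiles over the 12 libraries lay closer together than others. Likeness was measured as the root mean square difference of log2(FPKM + 1) after each gene's own mean was subtracted, so that 0 is an identical course. The closest pairs were Amn and Dpp4 (0.106), Mep1a and Napsa (0.145), Cubn and Lrp2 (0.195) and Amn and Ggt1 (0.195). Dpp4 and Ggt1 (0.248) and Anpep and Cubn (0.259) came next. Mep1b was far from all, and farthest from Dab2 (2.42). Among all other tested genes, the nearest to Mep1b were Slc7a13 (0.488), an amino acid transporter of the proximal tubule, Akr1c14 (0.559) and Slc22a7 (0.593), an organic anion transporter. The nearest to Lrp2 was Lpin1 (0.118), to Cubn Tef (0.130), to Mep1a Gpm6a (0.135), to Ggt1 Mettl26 (0.0698), to Dpp4 Galm (0.104), to Napsa Dmgdh (0.228) and to Anpep Gm6999 (0.160). The nearest to Dab2 was Mroh1 (0.0805), whose log2 differences were also small, at 0.09 in cKO and 0.13 in WT.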

How the data were processed

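RNA of mouse kidney was measured by sequencing in 12 libraries, 3 in each of 4 groups, taken from their titles and characteristics. The authors deposited FPKM for 56748 genes together with gene lengths. Per the submitters' processing notes, the reads were aligned with HISAT2 2.2.1, and the builds mm8 and mm9 were named. Neither the counting program, nor its use of strand, nor the annotation is given in the sources used here, so the build of the table's coordinates was not established and none are printed. Where a gene model overlaps another gene, that other gene had at most 23 recovered reads in any library.

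FPKM times gene length gave whole multiples of 1 step per library, and these recovered reads numbered 13187531 to 15962303 per library. Tests covered the 12868 genes whose FPKM averaged 1 or more across all 12 libraries, the 10 described genes among them. Group means were fitted to log2(FPKM + 1) in limma 3.58.1 under R 4.3.3 with a variance trend (8 residual and 2.59 prior degrees of freedom), two-sided, with Benjamini-Hochberg adjustment. Fold changes on this scale understate those of low genes. The fit was checked on simulated data. Ratios of partner genes were compared by a two-sided exact permutation test (SciPy 1.17.1). The described genes and all lists were chosen with earlier results of these data known. Genes named from a list are the 4 with the smallest p in WT IR against WT sham, except where stated, and for each described gene the 3 nearest profiles were found. Some genes that these rules name are not reported here. Markers of other cell types were summed per library.

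The alternatives were a pseudocount of 0.1, no filter, scaling to total reads or by TMM factors, only the compared groups, a replicate block, leaving out each library, and limma-voom on the recovered reads, which was added after seeing the data.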

Additional observations from a re-analysis of the deposited data

How the results depend on the processing

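Among the 10 genes, 8 were called in WT IR against WT sham, and 6 to 9 when each library was left out, 6 without the filter on low values, and 7 with scaling to total reads, with TMM factors, with the compared groups only and with limma-voom. In cKO IR against cKO sham 9 were called, with 8 to 9 on leaving out a library and 8 without the filter. None was called between the genotypes or in the interaction under any setting run. The calls that were lost were those of Amn and Dpp4 in WT and of Ggt1 in cKO. Without the filter the adjusted p was 0.0981 for Amn, 0.0567 for Dpp4 and 0.0683 for Ggt1. For Amn it was 0.0746 with total reads, 0.064 with TMM factors, 0.0948 with the compared groups only and 0.0577 with limma-voom. The call gained was Anpep in WT, without WT IR 2. The causes were not tested, other than fewer samples where libraries were left out. Scaling to total reads moved the median of all genes to 0.13 in WT IR against WT sham.

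The fit with the replicate number as a block called 8 of the 10 genes in WT IR against WT sham, 9 in cKO IR against cKO sham and 0 in the other comparisons, and 5242 and 6353 of all genes in the first 2, against 5424 and 6538 without the block. It changed none of these counts for the 10 genes. Deviations of libraries with the same number had correlations of −0.12 to 0.40 over 12 pairs, with 4 over 0.1, and in each comparison at most 3 of 6 libraries correlated best with their own number, so the numbers were not taken to pair the libraries.

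Values near 0 that were not called changed sign under some settings. With total reads, Napsa in cKO sham against WT sham became 0.028, Dab2 and Ggt1 in cKO IR against WT IR became −0.039 and −0.012, and the Mep1a interaction became −0.078. With TMM factors Dab2 in cKO IR against WT IR became −0.0075 and the Mep1a interaction −0.014, and with limma-voom they became −0.0049 and −0.019. When each library was left out, Dab2 in cKO IR against cKO sham ran from −0.020 to 0.157. In cKO sham against WT sham the ranges were −0.199 to 0.033 for Mep1a, −0.27 to 0.26 for Mep1b and −0.22 to 0.14 for Napsa. In cKO IR against WT IR they were −0.419 to 0.039 for Amn, −0.17 to 0.15 for Dab2, −0.15 to 0.30 for Ggt1, −0.40 to 0.43 for Mep1a, −1.22 to 0.66 for Mep1b and −0.26 to 0.74 for Napsa. For the interaction they were −0.293 to 0.024 for Dab2, −0.35 to 0.48 for Mep1a, −1.29 to 0.58 for Mep1b and −0.25 to 0.75 for Napsa. The log2 ratio of Mep1b to Mep1a in cKO differed by −3.53 with a pseudocount of 0.1. The planned count-model fits on recovered reads were not run, because the deposited table holds FPKM and no counts. Depth limits mainly Mep1b, whose lowest library had 36 reads.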
